A study of Arabidopsis thaliana with 4 samples.

Results

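The genes of the 26S proteasome, the protease complex that degrades ubiquitin-tagged proteins, were compared between Arabidopsis seedlings overexpressing RECA1 and the wild type. The list held 50 loci of the 20S core and the 19S regulatory particle, and a locus counted as measured where the array's annotation pairs a probe set with that gene alone. This gave 9 measured genes of 50, with 1 probe set each, out of 13286 loci paired in the same way. The other 41 are not analysed here. The measured genes were 1 of 12 listed for the α ring of the core, 0 of 11 for its β ring, 1 of 11 ATPases of the regulatory particle (RPT) and 7 of its 16 other subunits (RPN). The results below therefore describe the regulatory particle, and hardly the core.

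The study used 4 Affymetrix arrays of whole seedlings 2 weeks old, grown without treatment. Wild-type Col-0 plants gave 2 of the samples, and transgenic plants of the T3 generation that overexpress RECA1 (AT1G79050) in the same ecotype, here called RECA1-OE, gave the other 2. RECA1 encodes a chloroplast relative of RecA, the recombinase of bacterial DNA repair. The promoter of the transgene and the number of independent lines are not given in the sources used here. No probe set is paired with RECA1, so the group labels were not checked against the transgene. Samples within a group are labelled as biological replicates, with nothing said on separate growth, so the p-values below measure only the spread between these samples. Values are log2 MAS5 signals, in which the probes of a probe set are combined into 1 value per array and each array is scaled by 1 factor. With 4 arrays in all, their number sets the precision reached. Over the tested probe sets the Col-0 arrays correlated at r = 0.966 and the RECA1-OE arrays at 0.980, and Col-0 replicate 1 lay nearer to both RECA1-OE arrays (r = 0.918 and 0.924) than Col-0 replicate 2 did (0.882 and 0.884).

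The 26S proteasome consists of a barrel-shaped core particle, whose inner rings of β subunits carry the proteolytic sites and whose outer rings of α subunits gate the entrance, and of a regulatory particle that caps it. The base of the regulatory particle holds a ring of AAA-ATPases that unfold substrates, with large scaffold subunits. The lid removes ubiquitin chains before a substrate enters the core. In plants many subunits are encoded by pairs of paralogous genes. Arabidopsis mutants of subunits such as RPN10 or RPN12a have altered hormone responses, and impaired proteasomes are known to raise the transcripts of proteasome genes together, through the transcription factors NAC053 and NAC078. The subunit names used here are the usual Arabidopsis names of the loci. The annotation tables name only RPN12a and list the other 8 by locus.

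None of the 9 measured proteasome genes was called different between RECA1-OE and Col-0 by limma at an adjusted p under 0.05, where 19.9% of the 13647 tested probe sets were called. At an unadjusted p under 0.05 the count was also 0 of 9, against 35.3% of all tested probe sets. Without limma's pooling of the spread, an ordinary two-sample test called 0 of 9 as well, with 1 at an unadjusted p under 0.05, but it called 0 probe sets in the whole table. The log2 changes of the 9 genes ran from -0.12 to 0.31, with a median of -0.02, beside a median of -0.04 over all tested probe sets. Their median size, whatever the direction, was 0.071, beside 0.310 over all tested probe sets. RPN11, the deubiquitinase of the lid, had the largest difference and was 1.24-fold higher in RECA1-OE without passing the test. Arrays of whole seedlings cannot tell fewer cells of a type from less RNA per cell.

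**Figure D1:**
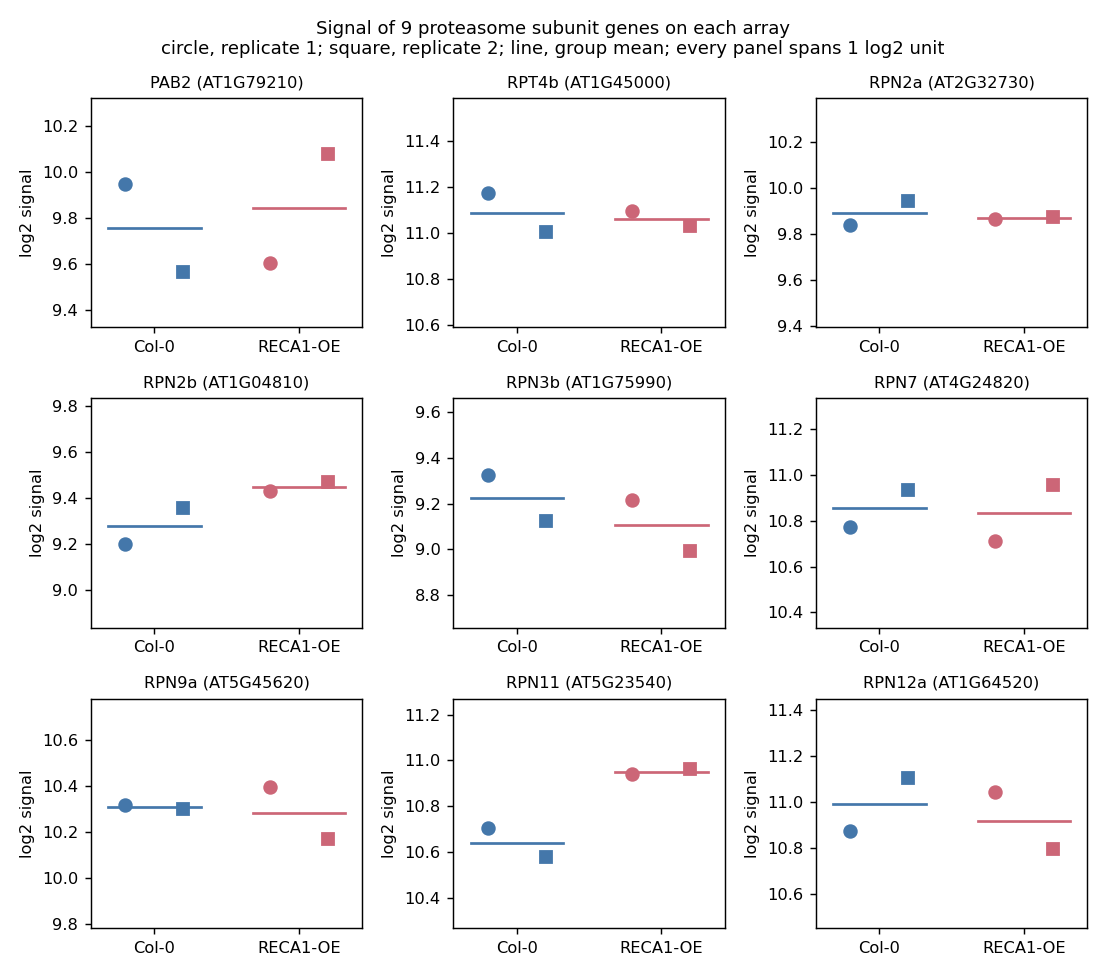
The log2 signal of each measured proteasome gene on each of the 4 arrays, in panels that all span 1 log2 unit. Circles are replicate 1, squares replicate 2 and lines the mean of the 2 arrays of a group. The RECA1-OE arrays lie above both Col-0 arrays for RPN2b and RPN11, and the groups overlap in the other 7 panels.

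In the core particle, PAB2 (AT1G79210), which encodes an α2 subunit of the outer ring, had log2 signals of 9.95 and 9.57 in Col-0 and of 9.61 and 10.08 in RECA1-OE. Each group held a high and a low array, and the groups overlapped. PAB2 had the widest spread of the 9 genes, with an SD of 0.27 in Col-0 and 0.34 in RECA1-OE (n = 2 each). Its log2 change was 0.09 ± 0.21 (SE), with a limma adjusted p of 0.802. No other core gene was measured, and PAB1, its paralogue, is among those not analysed here.

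In the base of the regulatory particle, RPT4b (AT1G45000), one of the AAA-ATPases of the unfolding ring, had log2 signals of 11.17 and 11.00 in Col-0 and of 11.09 and 11.03 in RECA1-OE. Both RECA1-OE arrays lay between the Col-0 arrays. Its log2 change was -0.03 ± 0.14 (SE), with a limma adjusted p of 0.912. RPN2 is the large scaffold subunit on which the base and the lid meet, and both genes that encode it were measured. RPN2a (AT2G32730) had log2 signals of 9.84 and 9.94 in Col-0 and of 9.87 in both RECA1-OE arrays, again between the Col-0 values. RPN2b (AT1G04810) had 9.20 and 9.35 in Col-0 and 9.43 and 9.47 in RECA1-OE. For RPN2b both RECA1-OE arrays were above both Col-0 arrays, by a step no wider than the gap between the Col-0 arrays.

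The log2 change was -0.02 ± 0.15 (SE) for RPN2a, with a limma adjusted p of 0.923, and 0.17 ± 0.15 for RPN2b, with a limma adjusted p of 0.459. The log2 ratio of the RPN2b signal to the RPN2a signal was -0.64 and -0.59 on the Col-0 arrays and -0.44 and -0.40 on the RECA1-OE arrays. Its mean was 0.19 higher in RECA1-OE, and the probes of each gene can affect both the ratio and its change. An exact two-sided permutation test on this ratio gave a p of 0.333. With 2 against 2 arrays the test cannot give a lower p, so it cannot decide whether the paralogues differ in their change.

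In the lid, RPN11 (AT5G23540) encodes the metalloprotease that cuts the ubiquitin chain from a substrate, the catalytic step of the lid. Its log2 signals were 10.70 and 10.58 in Col-0 and 10.94 and 10.96 in RECA1-OE. The groups did not overlap, and the gap between them was wider than the difference between the arrays of either group. The log2 change was 0.31 ± 0.14 (SE), with an unadjusted p of 0.063 and a limma adjusted p of 0.165. Of all tested probe sets, 50.1% had a smaller change than RPN11.

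RPN3b, RPN7, RPN9a and RPN12a encode structural subunits of the lid. RPN3b (AT1G75990) had log2 signals of 9.32 and 9.12 in Col-0 and of 9.22 and 8.99 in RECA1-OE. Its change of -0.12 ± 0.17 (SE) was the lowest of the 9 genes, and its limma adjusted p was 0.654. The higher RECA1-OE array of RPN3b lay within the Col-0 range. RPN7 (AT4G24820) had 10.77 and 10.94 in Col-0 and 10.71 and 10.96 in RECA1-OE, a change of -0.02 ± 0.16 with a limma adjusted p of 0.934. The RECA1-OE arrays of RPN7 lay on either side of the Col-0 values. RPN9a (AT5G45620) had 10.32 and 10.30 in Col-0 and 10.40 and 10.17 in RECA1-OE, a change of -0.03 ± 0.15 with a limma adjusted p of 0.916. The Col-0 arrays of RPN9a nearly coincided and the RECA1-OE arrays straddled them. RPN12a (AT1G64520), the subunit whose mutant is known for altered cytokinin responses, had 10.87 and 11.11 in Col-0 and 11.04 and 10.80 in RECA1-OE. Its change was -0.07 ± 0.16, with a limma adjusted p of 0.786, and the groups overlapped.

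**Figure D2:**
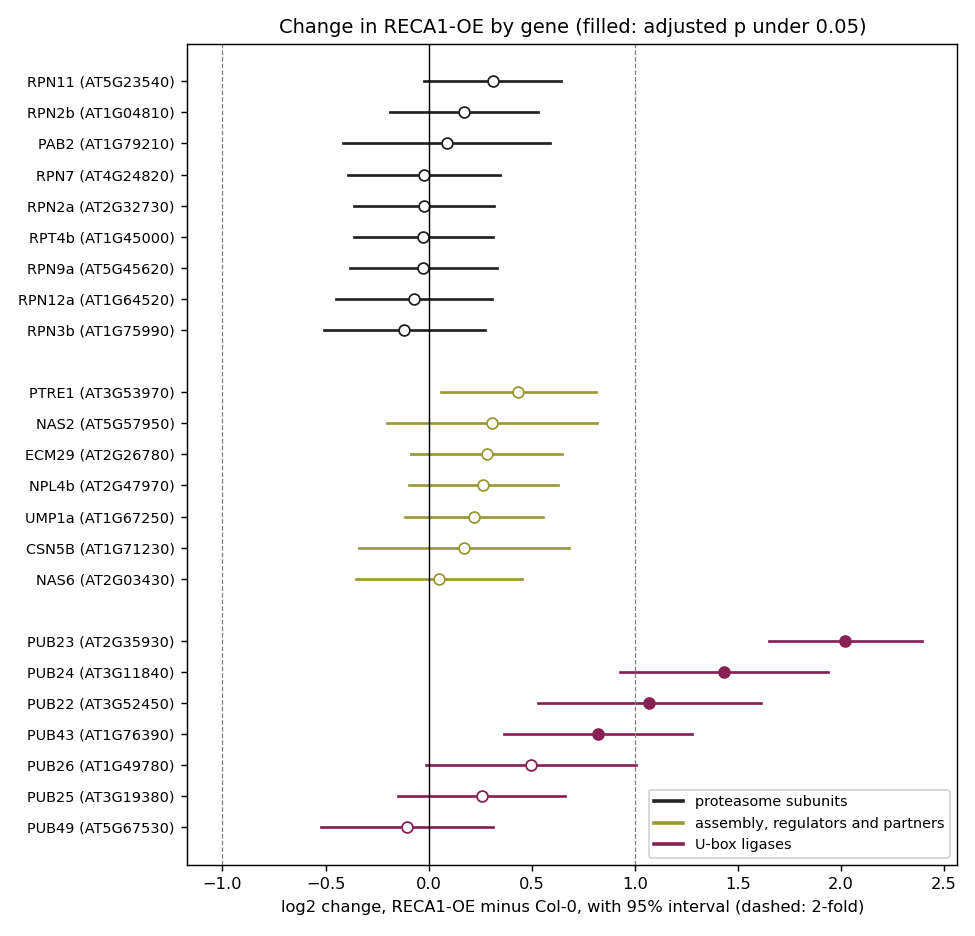
Log2 change in RECA1-OE relative to Col-0 with its 95% interval from limma, for 9 proteasome genes, 7 genes of assembly factors, regulators and partners, and 7 genes of U-box ubiquitin ligases. Filled points passed an adjusted p under 0.05; no proteasome gene did, and every interval of the proteasome genes lies inside the dashed lines at 2-fold.

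The intervals set limits to the changes that could have been missed. From limma's moderated standard errors, the 95% intervals of the 9 genes ran at the lowest to 0.70 times the Col-0 level, for RPN3b, and at the highest to 1.56 times that level, for RPN11. All 9 intervals lay inside a 2-fold change in either direction, as did those of 72.0% of all tested probe sets. For 7 of the 9, all but RPN11 and PAB2, the interval lay inside a 1.5-fold change, against 27.1% of all tested probe sets. These are intervals for single genes, not adjusted for their number, and they assume the spread that limma pools over probe sets. The SE of the 9 genes were between 0.142 and 0.214, with a median of 0.181 over all tested probe sets.

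Set against the whole table, most of the proteasome genes had small measured changes. The size of the log2 change was below the lowest quartile of all tested probe sets, 0.142, for 7 of the 9 genes, and only RPN2b and RPN11 exceeded it. For RPN7, RPN2a, RPT4b and RPN9a, under 5% of tested probe sets had a smaller change, between 3.52% and 4.37%. For each of the 7 genes below the quartile the change was smaller than its SE, so neither their ranks nor the count of 7 is resolved. After quantile normalization the changes of RPN7, RPN2a, RPT4b and RPN9a were -0.072, -0.061, -0.063 and -0.071, and that of RPN3b was -0.157. The groups did not overlap for 2 of the 9 genes, RPN11 and RPN2b, both higher in RECA1-OE, while they did not overlap for 65.0% of all tested probe sets. The mean in RECA1-OE was higher for 3 of the 9 genes and lower for 6, with a higher mean for 46.9% of all tested probe sets. The proteasome probe sets were bright, with mean log2 signals between 9.16 and 11.07. All 9 remained when only the 9098 probe sets with a mean log2 signal of at least 8.26 were tested. Among these 23.1% were called, the median size of change was 0.302, and the count of proteasome genes called was again 0. Whether the contrast with the table is particular to proteasome genes was not tested, because the list was chosen with results of these data known.

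**Figure D3:**
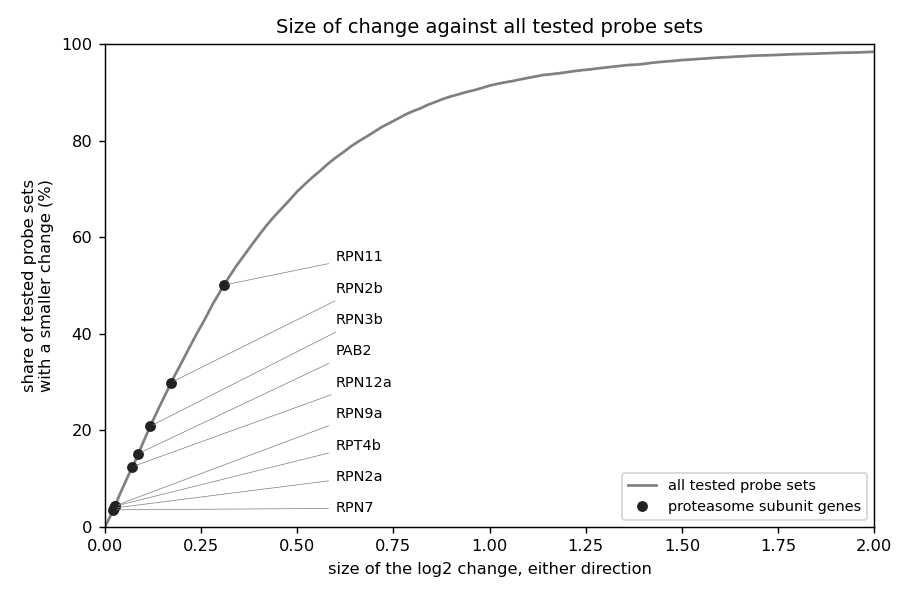
The share of all tested probe sets with a smaller log2 change (vertical axis, percent) against the size of the change in either direction (horizontal axis, log2 units). The curve is the whole table and the points are the 9 proteasome genes; 7 points lie below 25% and RPN11 lies at 50.1%.

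Between arrays, no array stood apart for the proteasome genes as a group. Relative to each gene's mean over the 4 arrays, the median of the 9 genes was -0.04 and -0.01 on Col-0 replicates 1 and 2, and 0.05 and -0.01 on RECA1-OE replicates 1 and 2. Each array held the highest value of at least 1 of the 9 genes and the lowest value of at least 1. RECA1-OE replicate 2 held the highest value of 4 genes and the lowest of 3. The values of a gene on the 4 arrays spanned between 0.10 log2 units, for RPN2a, and 0.52, for PAB2. When each array was left out in turn, 0 of the 9 genes were called in any of the 4 fits. The share of all tested probe sets called in these fits was 28.6% and 19.2% when Col-0 replicate 1 or 2 was missing, and 5.47% and 8.18% when RECA1-OE replicate 1 or 2 was missing. The sign of the change was kept in all 4 by RPN11, RPN2b and RPN3b, and was lost in at least 1 by the other 6 genes. The log2 change of RPN11 then ran from 0.25 to 0.37, that of RPN2b from 0.09 to 0.25, and that of PAB2 from -0.15 to 0.32. That of RPN3b ran from -0.23 to -0.0062, and was nearest to 0 with RECA1-OE replicate 2 or Col-0 replicate 1 left out.

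**Figure D4:**
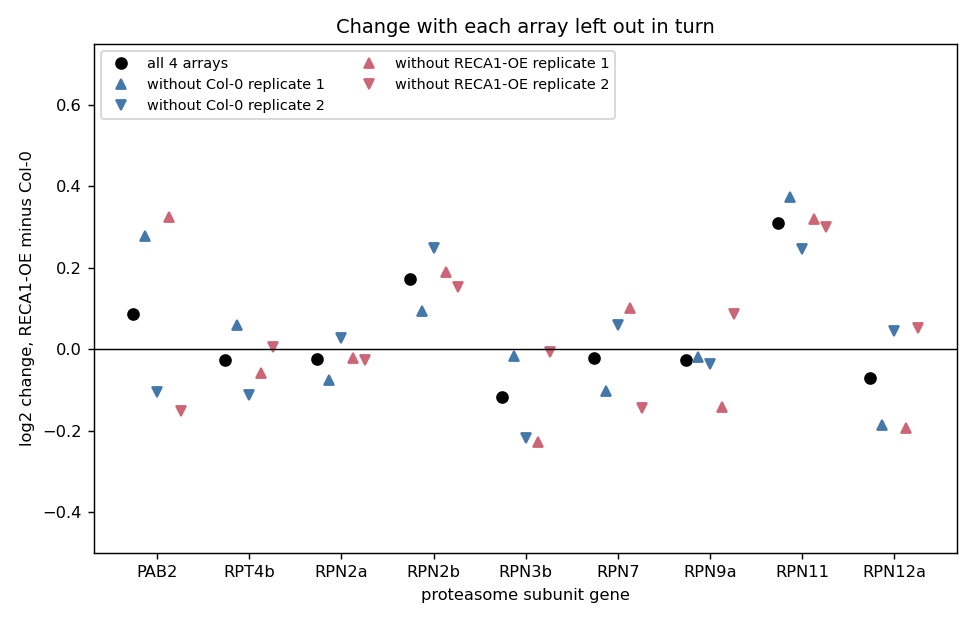
Log2 change of each proteasome gene in RECA1-OE relative to Col-0 with all 4 arrays (black) and with each array left out in turn (blue, a Col-0 array; red, a RECA1-OE array). RPN11 and RPN2b stay above 0 and RPN3b below it, while PAB2 moves between -0.15 and 0.32.

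Genes that work with the proteasome were taken from 6 related lists of 52 loci, covering further subunits, assembly and regulatory factors, the NAC factors named above, CDC48 with ubiquitin shuttle factors, ubiquitin with its activating enzymes, and the COP9 signalosome. Of these, 7 were measured and 0 of 7 were called by limma, where 19.9% of all tested probe sets were called. At an unadjusted p under 0.05 the count was 1 of 7, against 35.3% of all tested probe sets, and the ordinary two-sample test called 0. NAC053, NAC078 and the ubiquitin genes are not analysed here. All 7 had a higher mean in RECA1-OE, by log2 changes of 0.05 to 0.44 with a median of 0.27, where 46.9% of all tested probe sets had a higher mean. The groups did not overlap for 4 of the 7, a share no larger than the 65.0% of all tested probe sets. The exception among the unadjusted p values was PTRE1 (AT3G53970), a proteasome regulator of the PI31 family. It had log2 signals of 8.47 and 8.65 in Col-0 and of 8.987 and 8.998 in RECA1-OE. Its log2 change was 0.44 ± 0.16 (SE), with a limma adjusted p of 0.097.

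UMP1a (AT1G67250), whose yeast counterpart is a chaperone of core assembly, had log2 signals of 10.92 and 10.82 in Col-0 and of 11.15 and 11.03 in RECA1-OE. Both RECA1-OE arrays of UMP1a were higher, and its change of 0.22 ± 0.14 (SE) had a limma adjusted p of 0.309. The homologue of ECM29 (AT2G26780), in yeast a protein that tethers core and regulatory particle, differed by 0.28 ± 0.16, with a limma adjusted p of 0.244. AT2G47970, of the NPL4 family of CDC48 cofactors, differed by 0.27 ± 0.15, and its limma adjusted p was 0.263. The groups did not overlap for these either. AT5G57950, a homologue of the yeast base assembly chaperone Nas2, differed by 0.31 ± 0.22 with overlapping groups, and by 0.54 and 0.070 with Col-0 replicate 1 or 2 left out. CSN5B, the gene of a deubiquitinase-like subunit of the COP9 signalosome, a complex related to the lid, differed by 0.17 ± 0.22, and by 0.042 and 0.30 with Col-0 replicate 1 or 2 left out. AT2G03430, listed as the counterpart of yeast Nas6, differed by 0.05 ± 0.17, and its groups overlapped as well.

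Upstream of the proteasome, genes of ubiquitin transfer did include called ones. These families were taken by gene symbol after their values had been seen, so their counts are a description. Of 7 tested U-box ligase genes (PUB), 4 were called higher and 0 lower in RECA1-OE, where 9.94% of all tested probe sets were called higher. PUB22 and PUB23 encode ligases known to act in drought and immune responses and to ubiquitinate RPN12a. PUB23 (AT2G35930) had log2 signals of 7.38 and 7.44 in Col-0 and of 9.42 and 9.45 in RECA1-OE, a rise of 2.02 ± 0.16 (SE) with a limma adjusted p of 6.9e-04. PUB22 (AT3G52450) rose by 1.07 ± 0.23 (limma adjusted p = 0.020). The RPN12a transcript differed by -0.07, and the arrays do not measure RPN12a protein. PUB24 and PUB43 rose by 1.43 and 0.82. With no filter on dim signal 2 of 9 genes were called, PUB23 and PUB24. PUB22 and PUB43 then had limma adjusted p values of 0.056 and 0.059. The calls of PUB22 and PUB43 also depended on having both RECA1-OE arrays. Of 11 tested genes of ubiquitin-conjugating enzymes, 2 were called higher, UBC32 and UBC30, where 9.94% of all tested probe sets were called higher. UBC32 rose by 0.82, and by 0.76 and 0.89 with RECA1-OE replicate 1 or 2 left out. For UBC30 the rise was 0.69, and 0.65 and 0.74 in the same fits. The calls of UBC32 and UBC30 depended on having both RECA1-OE arrays and were lost in these fits. UBC20 differed by -0.78 ± 0.23 (SE) with a limma adjusted p of 0.054. It was called lower with the replicate block and with the lowest 60% left out. In the other settings with all 4 arrays it was not called, with a limma adjusted p of 0.109 without a filter. Its log2 signals were 8.90 and 9.58 in Col-0 and 8.43 and 8.49 in RECA1-OE. The change was -1.12 and -0.44 with Col-0 replicate 1 or 2 left out, and -0.75 and -0.81 with RECA1-OE replicate 1 or 2 left out. Of 12 tested ubiquitin-specific protease genes, 0 were called and 0 had an unadjusted p under 0.05, against 19.9% and 35.3% of all tested probe sets, and the ordinary two-sample test called 0, as it did throughout.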

How the data were processed

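Total RNA of whole seedlings was hybridised to 1 array per sample. The deposited values are log2 signals, 1 for each probe set on each array, from the authors' MAS5 run (per the submitters' processing notes; version not stated). On the linear scale, means trimmed by 2% per side were 495.4 to 495.8, nearly equal across arrays as after scaling to a common target; the sources used here do not state its value. Such scaling does not remove intensity-dependent differences between arrays.

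A floor of 1 was set on the linear signal. Of 22746 probe sets the dimmest 40% by mean log2 signal were not tested, and 13647 with a mean of at least 6.82 were. The annotation pairs a single gene with 13513 probe sets, several with 503 and none with 8730; 13436 of the first matched TAIR10.1 genes by Entrez ID. The brightest probe set per locus was used; each member had 1, and all 9 passed the filter.

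The groups were compared two-sided by limma 3.58.1 in R 4.3.3 (lmFit, then eBayes with trend). P-values were adjusted by Benjamini-Hochberg across the whole tested table. The moderation added 5.42 to 2 residual degrees of freedom. Intervals are 95% t intervals on the moderated SE. Members and lists were chosen with earlier results of these data known. All measured members are named, as are up to 4 genes of each related list by size of change and 1 further; family genes named are the called ones, PUB49 and UBC20, the latter pair the lowest of their families. Alternatives were a replicate block, no trend, no filter or a filter at 60%, quantile or median normalization, an offset of 16 before log2, each array left out, probe sets averaged per locus, and an ordinary two-sample test.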

Additional observations from a re-analysis of the deposited data

How the results depend on the processing

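The 2 arrays per group limit what could be called. The count of proteasome genes called was 0 under every alternative run, as were the counts for the related lists and the ubiquitin-specific proteases, with at most 1 gene of each at an unadjusted p under 0.05; leaving out arrays gave a range of 0 to 0. The members' median log2 change of -0.02 was -0.063 after quantile normalization and between -0.020 and 0.029 without 1 array. Without 1 array the log2 change ran from -0.15 to 0.32 for PAB2, -0.11 to 0.058 for RPT4b, -0.075 to 0.029 for RPN2a, -0.14 to 0.10 for RPN7, -0.14 to 0.088 for RPN9a, -0.19 to 0.052 for RPN12a, -0.059 to 0.16 for AT2G03430 and -0.23 to 0.016 for PUB49, none of them called. The 2716 probe sets called in the whole table became 1787 when dim ones were kept, 0 by the ordinary two-sample test (2897 at an unadjusted p under 0.05) and between 746 and 3906 without 1 array, the lowest with RECA1-OE replicate 1 missing, 1117 with RECA1-OE replicate 2 missing and the highest with Col-0 replicate 1 missing. The 4 U-box ligase calls became 2 when dim probe sets were kept or the lowest 60% were left out, 0 by the ordinary two-sample test and 2 to 4 without 1 array; the 2 conjugating enzyme calls became 0 by the ordinary test, 0 to 3 without 1 array, and 3 with the lowest 60% left out or with the replicate block. In these last settings the added call was UBC20, at -0.78 on the log2 scale, with limma adjusted p values of 0.049 and 0.046 against 0.054. The ordinary test rests on 2 degrees of freedom; the cause of the other shifts was not tested. The mean of all probe sets per locus equals the value used, since each gene had 1. The deviations of same-numbered arrays from their group means were nearly uncorrelated (-0.06), which cannot show whether the samples were paired. With the replicate number as a block 0 proteasome genes and 2390 probe sets were called.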
